A study of Mus musculus with 2 samples.

Results

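The genes described here encode integrins and cadherins, the main families of receptors by which cells hold on to matrix and to each other. They were taken from the deposited expression table by name: protein-coding genes whose symbols begin with Itga, with Itgb and a digit, or with Cdh and a digit. Itga2b, Itgb3 and Cdh5 were left out. The rule gave 50 of the 54532 genes in the table. They comprise 17 integrin alpha chains, 8 beta chains, 22 cadherins and 3 genes that share the Itgb prefix but encode binding proteins and no chain (Itgb1bp1, Itgb1bp2 and Itgb3bp). The rule used no measured value, although the members were chosen with earlier results of these data known.

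An integrin is a pair of 1 alpha and 1 beta chain that binds matrix proteins or counter-receptors outside the cell and, through talin and kindlin, the actin cytoskeleton inside it. The pairing sets the ligand, so that some pairs bind collagens, some laminins, some proteins with an RGD sequence, and the beta2 and beta7 pairs of leukocytes bind mainly cell-surface ligands. Cadherins join cells of one kind by calcium-dependent binding to each other and are held to actin by catenins. In bone marrow, integrins with the alpha4, alpha5 and beta1 chains are known for holding blood progenitors to stroma and fibronectin, whereas Cdh2 (N-cadherin) and Cdh11 (OB-cadherin) are known from mesenchymal and bone-forming cells.

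The series compared sorted bone marrow niche cells of CB6F1 mice by RNA sequencing, with 1 library in each of 2 groups. Female recipients (CD45.2+) of both groups were irradiated with 2 doses of 4.0 Gy and received 5000000 nucleated marrow cells from B6.SJL donors (CD45.1+) 4 hours later, which defines the BMT group. Recipients of the aGVHD_V group were also given 60000000 spleen cells from female C57BL/6 mice to induce acute graft-versus-host disease. Age, the day of sampling, the number of mice behind a library and the meaning of the V are not stated in the labels. With 1 library per group there was no replicate check and no test, and every difference below is between these libraries.

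Expression is given in FPKM, fragments per kilobase of gene and per unit of library size, as deposited by the authors. Reads could be recovered from these values and numbered 10869191 in BMT and 11299834 in aGVHD_V, with reads for 15477 and 12310 genes. Leaving out the lowest numbers, the modal count of reads per gene was 14 and 44, so that a gene seen at all usually had many reads. Intervals of a ratio were therefore widened by counting 14 or 44 reads as 1 count. They cover counting error only, and 3 such counts (42 and 132 reads) were taken as the floor that no reads allow. Although the sort depleted CD45, lineage and CD71 positive cells, the summed FPKM of 9 neutrophil markers was 15306 in the BMT and 20711 in aGVHD_V, against 576 and 37.2 for 9 markers of mesenchymal stroma. Markers of endothelium summed to 70.1 and 11.2 FPKM. In such bulk samples fewer cells of a type and less RNA per cell cannot be told apart.

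Promoter sequences are shown for 4 members whose levels are described below and which had an entry in the RefSeq promoter table (GRCm38.p6). Itgam, Itgb2l and Itgb7, chains of leukocyte integrins, had higher FPKM in aGVHD_V, and Itga5, the alpha chain of the fibronectin receptor, had lower FPKM there. Each sequence runs 5′ to 3′ on the strand of the gene, from 250 bases before to 50 bases after the start. Capitals mark the letters GAGGAA, a core bound by PU.1 and other Ets factors, on either strand (TTCCTC when on the opposite one). The windows are chr7:128062390-128062689 (plus strand) for Itgam, chr16:96443565-96443864 (minus strand) for Itgb2l, chr15:102231886-102232185 (minus strand) for Itgb7 and chr15:103366742-103367041 (minus strand) for Itga5.
Itgam: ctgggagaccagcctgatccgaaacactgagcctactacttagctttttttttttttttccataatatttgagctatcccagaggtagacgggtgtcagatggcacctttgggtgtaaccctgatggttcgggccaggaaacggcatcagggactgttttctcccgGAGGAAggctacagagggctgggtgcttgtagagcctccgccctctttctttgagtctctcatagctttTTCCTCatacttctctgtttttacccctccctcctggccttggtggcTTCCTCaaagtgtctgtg
Itgb2l: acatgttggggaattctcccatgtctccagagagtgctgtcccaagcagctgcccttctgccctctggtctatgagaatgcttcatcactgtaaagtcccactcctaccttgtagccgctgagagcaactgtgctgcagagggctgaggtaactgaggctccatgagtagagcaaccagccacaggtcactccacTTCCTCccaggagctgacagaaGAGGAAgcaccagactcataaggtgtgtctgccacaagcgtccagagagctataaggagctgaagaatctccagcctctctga
Itgb7: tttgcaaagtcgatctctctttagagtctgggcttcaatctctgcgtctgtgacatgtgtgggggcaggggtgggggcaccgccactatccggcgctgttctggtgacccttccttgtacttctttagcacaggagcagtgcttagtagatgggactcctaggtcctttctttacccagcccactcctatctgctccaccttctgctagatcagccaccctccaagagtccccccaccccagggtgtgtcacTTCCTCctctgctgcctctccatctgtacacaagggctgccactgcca
Itga5: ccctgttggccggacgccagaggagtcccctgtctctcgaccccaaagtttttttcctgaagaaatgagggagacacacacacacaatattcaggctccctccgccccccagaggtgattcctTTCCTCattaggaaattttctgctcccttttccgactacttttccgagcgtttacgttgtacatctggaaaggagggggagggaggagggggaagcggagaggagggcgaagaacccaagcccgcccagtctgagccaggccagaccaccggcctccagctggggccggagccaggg
Itgam held the letters at 3 places, with leftmost bases at -84, -15 and 33 from the start. Itgb2l held them at -55 and -33, Itgb7 at 3 and Itga5 at -127. Of 33 members with an entry, 15 had GAGGAA in at least 1 listed promoter, and 28.3% of all 32851 promoters of this length had it. Members were counted by gene, some with several promoters, and the background by promoter, also for the next motif. The shares are therefore not like for like. Among measured members not shown, Itga1, Itga4, Itga9, Itga10, Itgax, Itgb5, Itgb8, Itgb1bp1, Itgb3bp and Cdh24 had an entry without GAGGAA. Itgb1, Itgav and Itga11, also not shown, had an entry with it. The 4 shown all had it and so do not stand for the members. Another motif searched, TGTGGT on either strand (the core of RUNX sites), was found in 6 of the 33 members and in 16.8% of all promoters, and in none of the 4 shown. A match is a stretch of letters and not a shown binding site. The table had no entry for Cdh2 or Cdh11.

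Most of the abundant integrin genes lay close together in the libraries, whereas Cdh11 was far lower in aGVHD_V and Cdh2 had no reads there. Of the 50 members, 26 reached 1 FPKM in BMT or aGVHD_V and are called measured, 10 had reads but stayed below 1 in both, and 14 had no reads in either. Differences are of log2(FPKM + 1), aGVHD_V minus BMT, and 1 or more in either direction is called at least 2-fold. The added 1 shrinks the differences of low genes, so a gene within 2-fold here can exceed 2-fold by the plain ratio. Of the 26 measured members, 6 were at least 2-fold lower in aGVHD_V (Cdh11, Cdh2, Itga9, Itgax, Itga6 and Itga11), 3 were at least 2-fold higher (Itgae, Itgb3bp and Itgb8) and 17 lay within 2-fold. The share lower was 23.1%, against 19.4% of all 12942 measured genes, and the share higher was 11.5%, against 8.65%. Both shares are near those of all genes, so the counts are no result about these families. The median difference was -0.16 (95% order-statistic interval -0.93 to 0.66), against -0.07 over all measured genes.

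The called members were nearly all of low level. Of the 9 members that reached an FPKM of 10 in a library, 1 was at least 2-fold lower (Cdh11) and none was higher, where 7.63% and 7.08% of all genes of that level were called. Of the 17 members between 1 and 10 FPKM, 5 were lower and 3 higher, against backgrounds of 27.9% and 9.78%. Only 11 of the 26 measured members had reads at or above the floor in both libraries. All of those 11 lay within 2-fold by log2(FPKM + 1). By the plain ratio, Itgav (0.392) and Itgb1bp1 (2.27) exceeded 2-fold, with intervals that included no difference. No reads were found in aGVHD_V for 4 of 21 members with a BMT FPKM of 1 or more, a share of 19%, against 13% of all such genes. No reads were found in BMT for 1 of 19 members with an aGVHD_V FPKM of 1 or more, against 3.55% of all such genes.

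**Figure D1:**
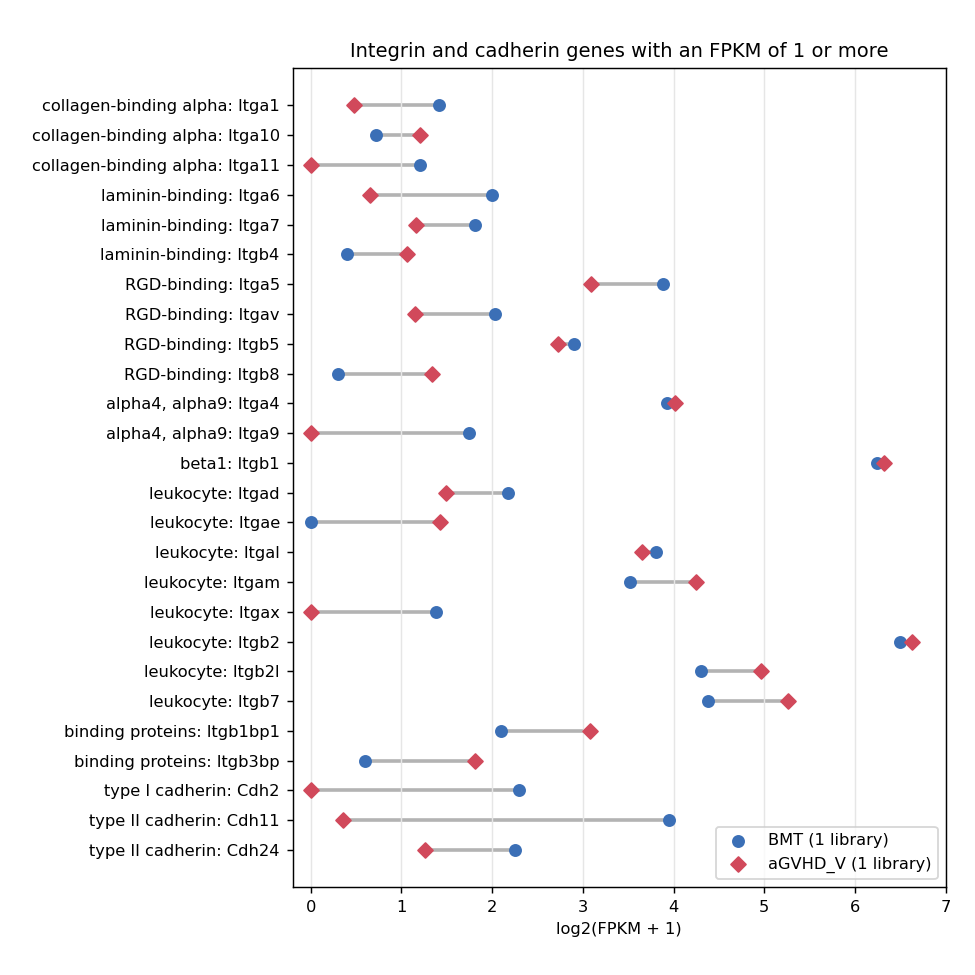
Level of the 26 measured members as log2(FPKM + 1), with circles for the BMT library and diamonds for the aGVHD_V library, 1 library each, ordered by role. Itgb2 and Itgb1 stand highest in both libraries, and the widest gaps belong to Cdh11 (FPKM 14.4 and 0.284) and Cdh2 (3.93 and no reads).

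Scaling between the libraries matters for these counts. With both libraries set to an equal FPKM sum, which moved the median of genes at 1 FPKM or more in both from 0.03 to -0.52, 12 members were at least 2-fold lower and 3 higher, beside 33.8% and 6.18% of all measured genes. With library sizes of all recovered reads the median was -0.19, and 10 members were lower and 2 higher, beside 22.8% and 6.61%. The erythroid markers summed to 41954 FPKM in BMT and 151703 in aGVHD_V, and their part in these shifts was not tested.

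**Figure D2:**
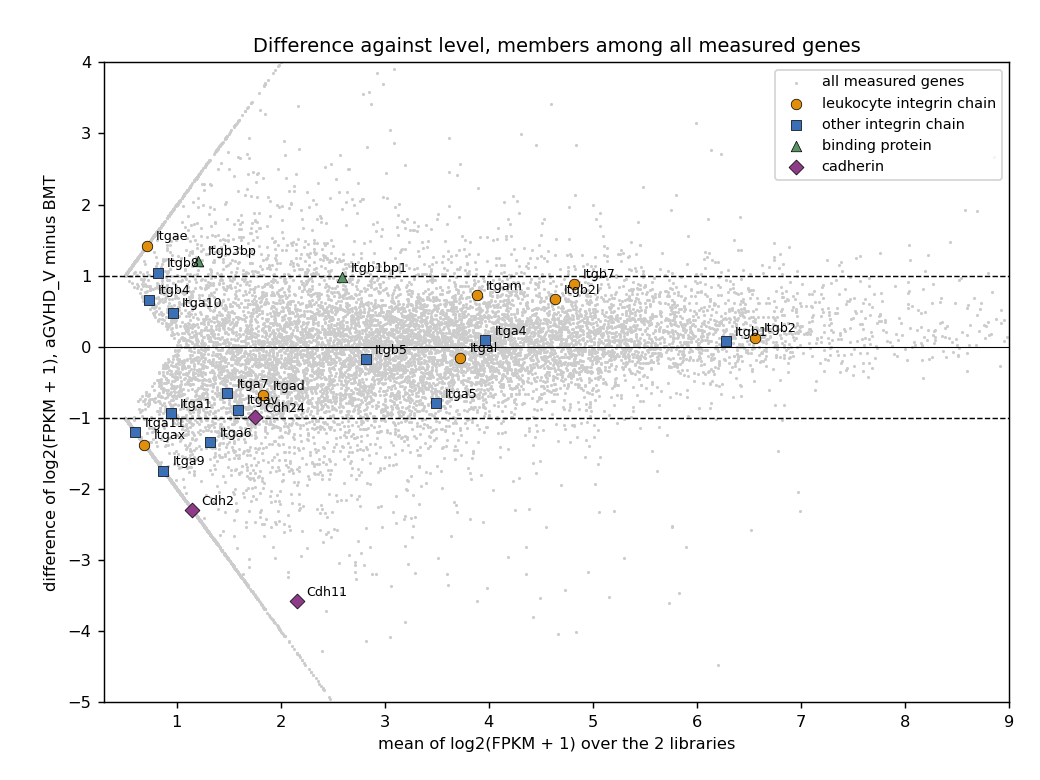
Difference of log2(FPKM + 1), aGVHD_V minus BMT, against the mean level over the libraries, with grey points for all measured genes (118 lie outside the axes) and larger symbols for the members by kind. Dashed lines mark 2-fold, and among members above a mean level of 3 all lie between them, while Cdh11 lies at -3.58.

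Leukocyte integrins include the most abundant member, Itgb2, and most of their chains lay within 2-fold. This group pairs the beta2 chain (Itgb2, CD18) with the alpha chains Itgal, Itgam, Itgax and Itgad, and the beta7 chain (Itgb7) with Itgae or Itga4. All 8 of its members were measured, and 1 was at least 2-fold lower, 1 higher and 6 within 2-fold. Of all 12942 measured genes, 19.4% were lower, 8.65% higher and 9311 genes within 2-fold. The counts are therefore no result about leukocyte chains. The summed FPKM of the 8 members was 156 in the BMT and 198 in aGVHD_V. Itgb2 had an FPKM of 89.4 in BMT and 97.6 in aGVHD_V, the highest member in both. Its ratio of 1.09 (widened 95% interval 0.827 to 1.43) included no difference, and the sign turned under both scalings named above. Itgb7, which with alpha4 forms a gut-homing receptor of lymphocytes, was at 19.8 and 37.4 FPKM, a ratio of 1.89 (1.12 to 3.13). Its gene (ENSMUSG00000001281) lies on chromosome 15 at 102215995 to 102231944 on the minus strand of GRCm38.

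Itgb2l, a beta2-like chain of neutrophils, was at 18.7 and 30.2 FPKM, a ratio of 1.62 (1.03 to 2.49). Itgam (CD11b), the alpha chain of Mac-1 on neutrophils and monocytes, was at 10.5 and 18.0 FPKM, a ratio of 1.72 (0.981 to 2.91) that included no difference. These 3 genes were thus all within 2-fold and higher by value in aGVHD_V, also under the 9 alternatives run for each. The Itgam count is uncertain, as 68.7% of its exon bases are shared with the same-strand gene model Gm49368. Such overlaps are named here where they exceed 10% of the exon bases of a measured member, since it is not known how the counting treated them. Itgal (CD11a), the alpha chain of LFA-1 on most leukocytes, was at 13.0 and 11.6 FPKM, a ratio of 0.891 (0.504 to 1.5).

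The rarer leukocyte chains rested on few reads. Itgad (CD11d) was at 3.51 and 1.81 FPKM on 192 and 87 reads, and other genes overlap 19.7% of its exon bases. Itgax (CD11c), known from dendritic cells, had 93 reads (1.60 FPKM) in BMT and none in aGVHD_V, where the floor would allow 2.58 FPKM, so no fold is given. Itgae (CD103), the partner of beta7 on intraepithelial T cells, had no reads in BMT and 82 reads (1.68 FPKM) in aGVHD_V, which is also under the floor. Beside these values, the pan-leukocyte markers summed to 305 and 413 FPKM (5 of 5 detected in both), the neutrophil markers as given above (9 of 9), the monocyte and macrophage markers to 315 and 355 (9 of 9, although 6 of them were lower by value in aGVHD_V, with a median difference of -0.43), and the T and NK cell markers to 53.7 and 103 (7 and 8 of 9, with Ncr1 at 0 in both). The B and plasma cell markers went the other way, from 76.7 to 13.7 FPKM. Of the 8 measured, 7 were at least 2-fold lower and 1 higher, beside 19.4% and 8.65% of all measured genes. The part of any of these cells in the values of the leukocyte chains was not tested.

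The beta1 chain and alpha4, which leukocytes and stroma share, had ratios near 1. Itgb1, the beta chain of most matrix receptors, had an FPKM of 74.5 in BMT and 78.6 in aGVHD_V, a ratio of 1.06 (0.809 to 1.36). Itga4 (CD49d), which with beta1 forms VLA-4, a receptor for VCAM1 and fibronectin, was at 14.2 and 15.1 FPKM, a ratio of 1.07 (0.766 to 1.47). Both intervals included no difference, and both signs turned under the equal-sum scaling and with the library sizes of all recovered reads. Its relative Itga9, an alpha chain for tenascin and other ligands, had 219 reads (2.35 FPKM) in BMT and none in aGVHD_V. The Itga9 value in BMT was 1.46 times the aGVHD_V floor, and the widened interval of its ratio ended at 0.951.

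Of 9 measured alpha chains outside the leukocyte group, 7 had a lower value in aGVHD_V and 2 a higher one. Over all 12942 measured genes, 6975 had a lower value and 5967 a higher one. The 12 alpha chains outside that group all pair with beta1, and 9 of them were measured. Of these 9, 3 were at least 2-fold lower (Itga6, Itga9 and Itga11), none was higher and 6 lay within 2-fold. The 3 called lie between 1 and 10 FPKM, where 27.9% of all measured genes were lower, and 19.4% were at any level, so the count is no result about these chains. Their median difference was -0.89 (95% interval -1.34 to 0.09), against -0.07 over all measured genes, which that interval includes. No median over genes of like level was taken. The summed FPKM of the 12 was 44.0 and 27.4. The 7 measured beta chains, leukocyte chains included, held 1 at least 2-fold higher, none lower and a median of 0.66 (-0.17 to 1.04). Over all measured genes 8.65% were higher and 19.4% lower, and the 1 higher, Itgb8, had BMT reads under the floor. These counts are therefore no result about beta chains. With leukocyte chains likewise included, the 14 measured alpha chains had a median of -0.74 (-1.34 to 0.48). The difference between alpha and beta chains was not tested. Itga5, the fibronectin receptor chain, was at 13.8 and 7.53 FPKM, 1.83-fold lower (0.902 to 4.2), and its interval included no difference.

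Among the other chains for RGD ligands, Itgav, the vitronectin receptor chain, was at 3.09 and 1.21 FPKM, 2.55-fold lower by the plain ratio (0.808 to 12.4). Its partner Itgb5 was at 6.48 and 5.62 FPKM, a ratio of 0.868 (0.249 to 2.41). Itgb8, a beta chain known for activating latent TGF-beta, went the other way, with 31 reads (0.231 FPKM) in BMT and 181 reads (1.53 FPKM) in aGVHD_V. The widened interval of its ratio ran from 1.01 to 63.3 and its BMT reads were under the floor. Itga8, of smooth muscle and mesenchyme, had 52 reads in BMT only, and Itgb6, of epithelia, had none in either.

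Laminin and collagen receptors were low in both libraries. The laminin-binding chain Itga6 (CD49f) was at 2.99 and 0.572 FPKM on 327 and 55 reads, and the upper end of its ratio interval was 1.02. Itga7, the laminin receptor of muscle, was at 2.52 and 1.23 FPKM, and Itgb4, the hemidesmosome chain, at 0.317 and 1.08 FPKM on 27 and 81 reads. Of the collagen receptors, Itga1 was at 1.66 and 0.393 FPKM, with an upper end of the interval at 1.01. Itga11, known from fibroblasts and osteoblasts, had 81 reads (1.30 FPKM) in BMT and none in aGVHD_V, which is too few for a bound. Itga10, of cartilage, was at 0.652 and 1.30 FPKM, and the gene model Gm42957 covers 33.5% of its exon bases.

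The widest differences among the members were those of the cadherins Cdh11 and Cdh2. Of 22 cadherins, 9 had reads in BMT and 2 in aGVHD_V, and their summed FPKM was 24.2 and 1.68. Reads were thus found in BMT only for 7 of the 9, where 24.6% of all genes with BMT reads had none in aGVHD_V. Of these 7, 6 had at most 51 BMT reads, and 65.7% of all genes with so few had none in aGVHD_V, so nothing is read from their loss. Only 3 were measured. Cdh11, the cadherin of mesenchymal and bone-forming cells, had 1556 reads (14.4 FPKM) in BMT and 27 reads (0.284 FPKM) in aGVHD_V, a difference of -3.58. As the latter is under the floor no fold is given, but the widened interval of its ratio ended at 0.16. The gene (ENSMUSG00000031673) lies on chromosome 8 at 102632095 to 102785642 on the minus strand.

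Cdh2, N-cadherin (ENSMUSG00000024304, chromosome 18, 16588877 to 16809246, minus strand), had 384 reads (3.93 FPKM) in BMT and none in aGVHD_V. The Cdh2 value in BMT was 2.56 times the aGVHD_V floor, and the widened interval of its ratio ended at 0.515. Cdh24, a type II cadherin, was at 3.76 and 1.40 FPKM on 159 and 52 reads, with an interval of the ratio from 0.014 to 2.28 that included no difference. The other 6 cadherins with reads (Cdh1, Cdh4, Cdh6, Cdh13, Cdh19 and Cdh23) stayed below 1 FPKM in BMT and had none in aGVHD_V. The remaining 13 had no reads in either. Beside Cdh11 and Cdh2, the markers of mesenchymal stroma were 9 of 9 at least 2-fold lower with Lepr at 0 in aGVHD_V. The osteolineage markers were 6 of 6 measured lower, and of all measured genes 19.4% were lower. Their sum went from 78.2 to 5.51 FPKM, with Sp7 and Ibsp at 0 in aGVHD_V. Sp7 had 66 BMT reads and a ratio interval reaching 4.24, and that of Alpl reached 1.31, so both included no difference. The part of stromal and bone-forming cells in the cadherin values was not tested.

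**Figure D3:**
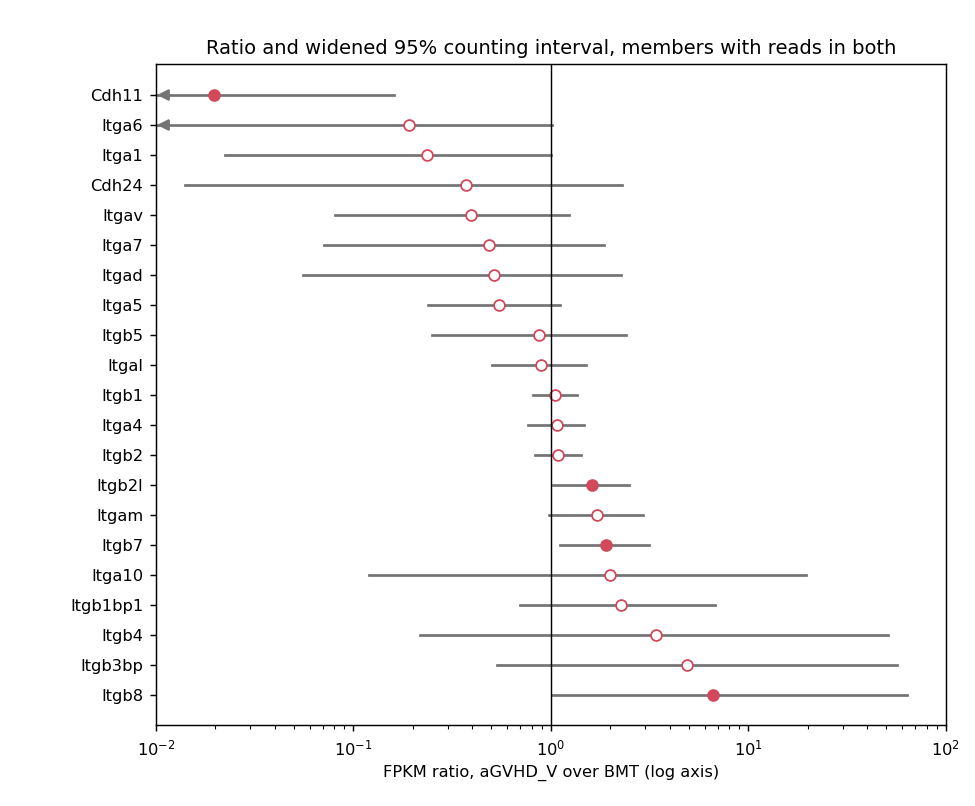
FPKM ratio of aGVHD_V over BMT on a log axis for the measured members with reads in both libraries, with bars for the widened 95% counting interval, arrows where a bar leaves the axis and filled circles where it excludes a ratio of 1. Cdh11 lies far to the left, with an interval ending at 0.16, and Itgb2l, Itgb7 and Itgb8 have intervals that begin just above 1.

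By the widened interval, 3 of the 26 measured members were below a ratio of 1 (Cdh11, Cdh2 and Itga9), against 4.57% of all measured genes, and 3 were above it (Itgb2l, Itgb7 and Itgb8), against 6.03%. With the equal FPKM sum none was above and 10 were below, against 0.95% and 21.3% of all genes. With library sizes of all recovered reads none was above and 6 were below, against 2.94% and 8.92%. Cdh11, Cdh2 and Itga9 were among those below in each of these scalings.

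The binding proteins that the name rule brought in were low in both libraries. Itgb1bp1 (ICAP1), which binds the beta1 tail and opposes talin, was at 3.29 and 7.45 FPKM, a ratio of 2.27 (0.701 to 6.75) that included no difference, and other genes overlap 16.9% of its exon bases. Itgb3bp, a centromere protein also known to bind the beta3 tail, was at 0.516 and 2.51 FPKM on 29 and 124 reads, both under the floor. Itgb1bp2 (melusin), of muscle, had 12 reads in BMT only.

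Partners inside the cell were described from lists of known genes. Of 30 cytoplasmic partners of integrins, 27 were measured, and 6 were at least 2-fold lower and none higher, a share lower of 22.2% beside 19.4% of all genes. The most abundant had close values, among them Fermt3 (kindlin-3, the integrin activator of blood cells) at 127 and 143 FPKM, Flna (filamin A) at 98.6 and 106 FPKM, and the small GTPase Rap1b at 93.7 and 88.1 FPKM. The lower ones with the widest differences were Src, a tyrosine kinase of adhesion sites (3.96 FPKM and no reads), and Tns2 (tensin 2) at 6.7 and 0.791 FPKM. Next were Tns3 (tensin 3) at 7.96 and 1.99 FPKM and the scaffold Bcar1 (p130Cas) at 1.65 FPKM and no reads. The widened ratio interval ended at 0.997 for Src, 0.687 for Tns2 and 0.592 for Tns3. Tns2 had 46 reads in aGVHD_V, under the floor. Bcar1 had 91 reads in BMT and an interval reaching 2.73, so the size of any difference is undetermined. Of 10 cytoplasmic partners of cadherins 7 were measured and all lay within 2-fold. So did 9311 of all 12942 measured genes, and the count is no result about cadherin partners. Ctnna1 (alpha-catenin) was at 45.8 and 44.2 FPKM, Ctnnb1 (beta-catenin) at 38.8 and 35.3 FPKM and Jup (plakoglobin) at 1.67 and 2.14 FPKM.

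Most measured matrix ligands of integrins were lower in aGVHD_V. Of 25 listed, 19 were measured, and 14 were at least 2-fold lower and none higher. The share lower was 73.7% beside 19.4% of all measured genes, and none was higher beside 8.65%. The median difference was -1.95 (-2.8 to -0.76), and the summed FPKM was 427 and 129. This list was chosen with earlier results of these data known. The interval treats its genes as independent draws, which was not shown, so neither share nor interval is a test. Tnc, tenascin C, a ligand of alpha9, was at 28.6 and 0.676 FPKM, and Lamb1, a laminin chain, at 8.45 and 0.104 FPKM. Nid1 (nidogen, of basement membranes) was at 11.9 and 0.365 FPKM, and Col1a2 (collagen I) at 33.9 and 1.39 FPKM. The aGVHD_V reads of Tnc (56), Lamb1 (11) and Nid1 (27) were under the floor, so their levels there are uncertain. Among the most abundant, Thbs1 was at 104 and 62.8 FPKM, Col4a1 at 49.7 and 12.2 FPKM, and Spp1 at 55.5 and 8.71 FPKM. Of the 5 measured ligands within 2-fold, Fn1 (fibronectin) was at 11.4 and 11.0 FPKM, a ratio of 0.967 (0.629 to 1.45). Postn was the only measured ligand higher by value, at 1.77 and 2.86 FPKM. Several ligands on this list also mark stroma or bone-forming cells, whose markers are given above.

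**Figure D4:**
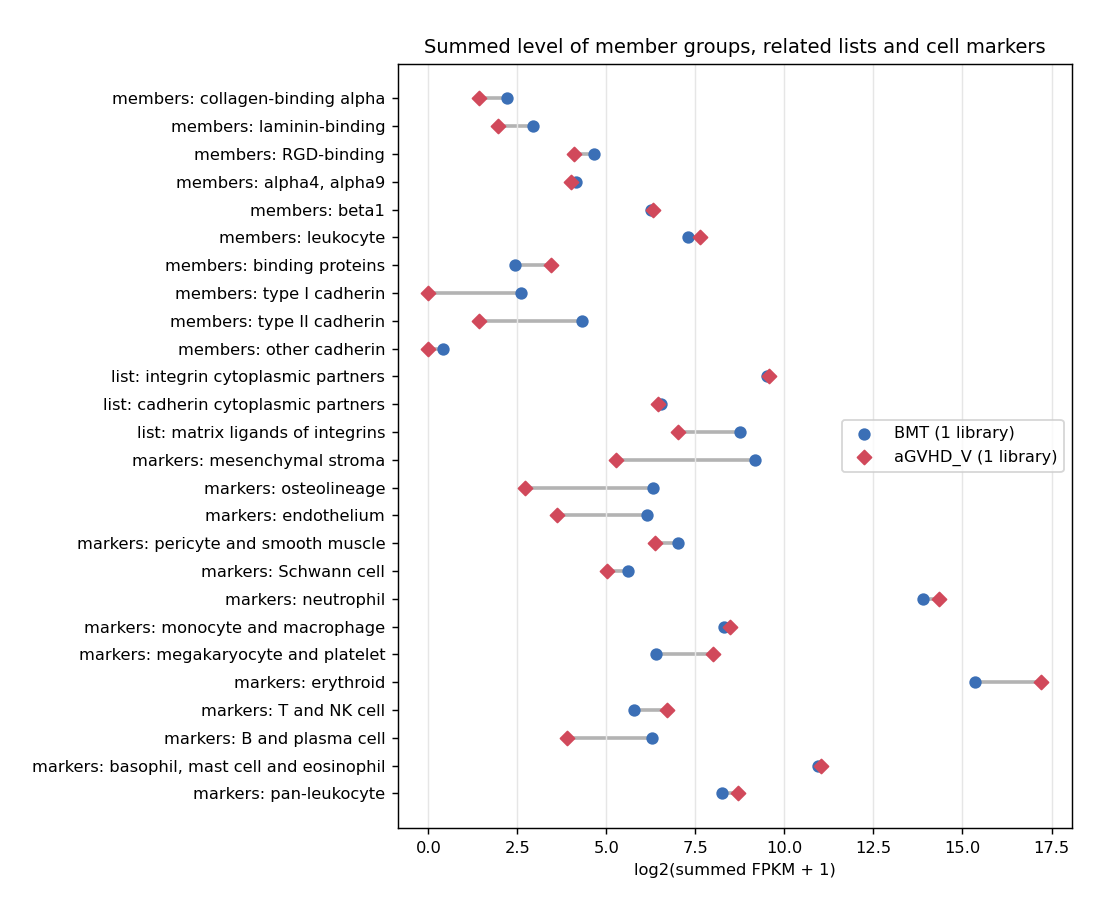
Summed FPKM, as log2(sum + 1), of the member groups by role, the related lists and the marker lists, with circles for BMT and diamonds for aGVHD_V. The leukocyte group and the cytoplasmic partners have close values, while cadherins, matrix ligands, and stromal, bone-forming and endothelial markers are lower in aGVHD_V.

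**Figure D5:**
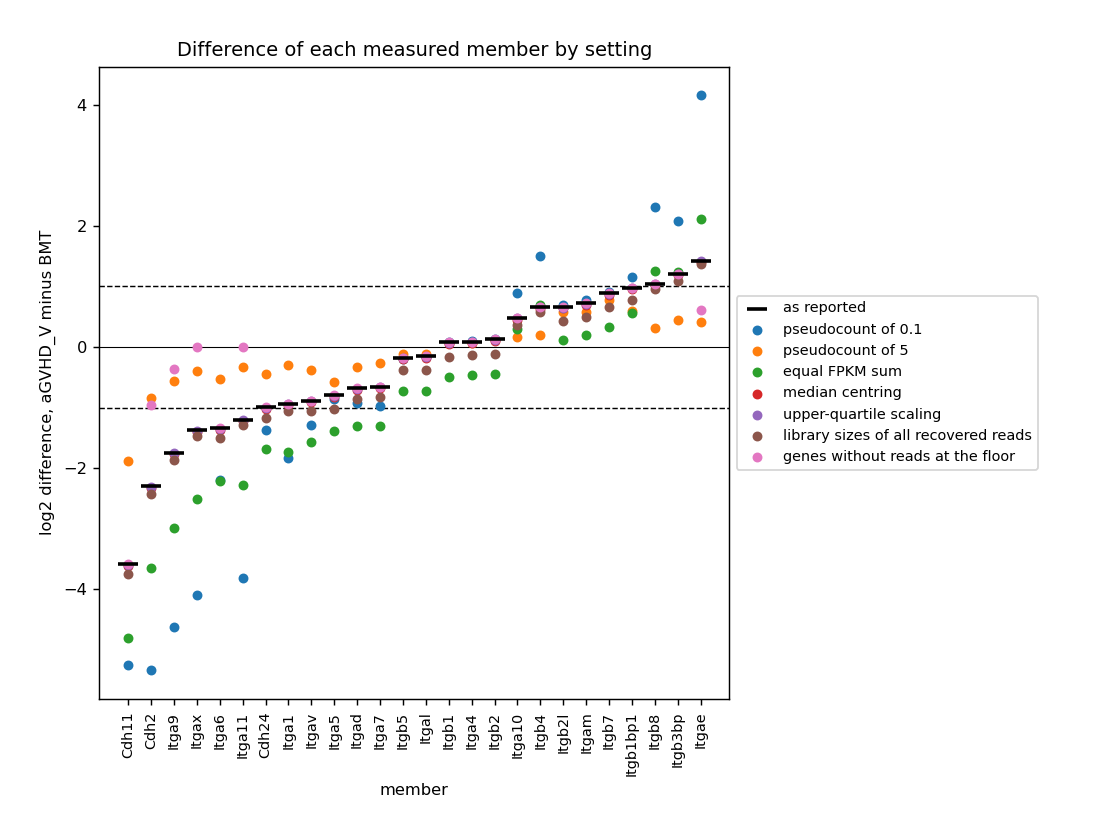
Log2 difference of each measured member as reported (black bars) and under the alternatives of pseudocount, scaling and floor (coloured points), with dashed lines at 2-fold. Cdh11 stays below the lower line in all of them (-1.88 at the least), and Itgb1, Itgb2 and Itga4 change sign with the equal FPKM sum and the library sizes of all recovered reads.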

How the data were processed

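RNA was sequenced from sorted bone marrow niche cells in 2 libraries, 1 per group, grouped by their titles. The authors deposited FPKM per gene, per the file headers, with gene lengths and positions. The submitters' processing notes list the builds GRCm38 and mm10 and, as a tool, edgeR 3.18.1. Not given in the sources used here are aligner, counter and strand setting. The table holds 1 other column of sample values that no label matches, and it was not used.

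FPKM times length was a whole multiple of 1 step per library for 100.0% of values above 0 (tolerance 0.05), which gave reads per gene. These steps imply library sizes of 12127105 (BMT) and 10661688 (aGVHD_V) reads, so sizes had been scaled before deposit. Differences are log2(FPKM + 1), aGVHD_V minus BMT, which understates those of low genes. The modal read number leaves out numbers under 4 and uses a window of 7. Intervals are conditional Clopper-Pearson at 95% on reads divided by that number. All measured members are named. From related lists, the 3 most abundant genes and up to 4 with the widest difference past 2-fold are named, and Fn1 and Postn besides. The members and lists were chosen with earlier results of these data known, and Vcam1 is on 2 marker lists. Col1a1 and Col1a2 are on both the ligand list and the osteolineage list. All 50 members had the same start and end in GENCODE M21, which also gave exon overlaps. Markers on lists not given above summed as follows. Those of pericytes and smooth muscle were at 128 and 81.1 FPKM in BMT and aGVHD_V, and those of Schwann cells at 47.9 and 31.1. Those of megakaryocytes were at 82.3 and 254, and those of basophils, mast cells and eosinophils at 1975 and 2067. The scripts were tested on simulated data and used Python 3.11.15, numpy 2.4.6, pandas 2.3.3, scipy 1.17.1 and matplotlib 3.10.9. Alternatives were pseudocounts of 0.1 and 5, 4 scalings (equal FPKM sum of 1000000, median centring, upper quartile and library sizes of all recovered reads), no filter, an FPKM minimum of 5 and, for genes without reads, the floor or, if lower, to the value of the other library. Leaving out the 3 genes that are not chains and a minimum of floor reads were added after seeing the data.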

Additional observations from a re-analysis of the deposited data

How the results depend on the processing

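No paired analysis was possible because each group has 1 library. The count of members at least 2-fold lower, 6 as reported, was 12 with the equal FPKM sum, 10 with library sizes of all recovered reads, 2 with genes without reads at the floor, and 1 with a pseudocount of 5 or an FPKM minimum of 5. The count of members at least 2-fold higher, 3 as reported, was 5 with a pseudocount of 0.1, 0 with a pseudocount of 5 or an FPKM minimum of 5, and 1 when reads at the floor were required in at least 1 library. The cytoplasmic partners at least 2-fold lower, 6 as reported, were 11 with the equal FPKM sum, 2 with an FPKM minimum of 5 or with genes without reads at the floor, and 1 with a pseudocount of 5. The pseudocount and the minimum act on low genes by construction, and the cause of the scaling effects was not tested. The median difference of members, -0.16, ran from -0.73 with the equal FPKM sum to 0.09 with an FPKM minimum of 5. Cdh11 was at least 2-fold lower in all 9 alternatives, whereas Cdh2 was within 2-fold with a pseudocount of 5 (-0.84) and with its floor (-0.96). All-gene counts, 2512 lower and 1119 higher, were 987 and 754 with the floor, 503 and 356 with a pseudocount of 5, 859 and 616 with an FPKM minimum of 5, and 4374 and 800 with the equal FPKM sum. At this depth, a member without reads could hold up to 3 counts, so for Itgax and Itga11, whose BMT levels are under that floor, the size of any difference is undetermined.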

Other observations

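Ratios between chains within a library do not depend on the scaling between libraries. The Itgam level was 0.81 times the Itgal level in BMT and 1.56 times in aGVHD_V. Itga5 and Itga4 stood at a ratio of 0.973 in BMT and 0.497 in aGVHD_V, and Itga5 to Itgb1 at 0.185 and 0.0957. Itga4 to Itgb1 was 0.19 and 0.192, and Itgb2 to Itgb1 was 1.2 and 1.24. Itga4 to Itgb7 was 0.717 and 0.405. These are values of 1 library per group with no replicate check, and the Itgam values carry the exon overlap given above.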
